A study of Mus musculus with 6 samples.

Results

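Hox genes encode homeodomain transcription factors that give cells their address along the head-to-tail axis and along the limbs. In the mouse they sit in 4 clusters, Hoxa on chromosome 6, Hoxb on chromosome 11, Hoxc on chromosome 15 and Hoxd on chromosome 2, and genes with the same number in different clusters are paralogs. Low numbers are used towards the head and early, high numbers towards the tail and in distal limbs and late. Fibroblasts keep part of the Hox pattern of the place they came from, so the set that is on reads as a record of position. Polycomb complexes hold Hox clusters silent, and the MLL and COMPASS enzymes oppose them. DOT1L, the enzyme that methylates a core lysine of histone H3 in transcribed genes, is best known at these clusters from human leukemias with rearranged MLL, where it sustains HOXA9.

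The Hox genes described here are the rows of a deposited expression table whose Ensembl identifier has a symbol of Hoxa, Hoxb, Hoxc or Hoxd with a number. There were 38 of them among 37224 rows, 11 in Hoxa, 10 in Hoxb, 9 in Hoxc and 8 in Hoxd. In the RefSeq annotation of GRCm38.p6, the Hoxa genes described below lie between 52162417 (the first base of Hoxa2) and 52260880 (the last of Hoxa13) on chromosome 6, and Hoxb runs from 96194316 (Hoxb13) to 96368254 (Hoxb1) on chromosome 11. Hoxc runs from 102921131 (Hoxc13) to 103036856 (Hoxc4) on chromosome 15, and Hoxd from 74668225 (Hoxd13) to 74765142 (Hoxd1) on chromosome 2. RefSeq holds 39 such genes, and the remaining one, Hoxd4, was not analysed here.

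RNA was sequenced from mouse embryonic fibroblasts of the C57BL/6 background, labelled as primary cells: Dot1L-/- cells (called Dot1L null below) given sodium arsenite, Dot1L null cells left untreated, wild-type cells given sodium arsenite, and wild-type cells left untreated. Exposure lasted 24 h at a dose the labels call low, and the protocol names 5 and 10 µM beside 0 µM without saying which was sequenced. Each of the 4 groups held 1 library, so every comparison below sets one library against another, has no replicate error and no test, and cannot tell genotype or treatment apart from the culture a library came from. Values are RPKM, reads scaled to gene length and library depth, which allows levels of different genes to be compared per length. A further 2 libraries of H3K27ac ChIP-seq were not analysed here.

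Depth differed between treatments. The whole reads recovered from the RPKM steps came to 11879632 in the Dot1L null arsenite library, 64699847 in the Dot1L null control, 10833103 in the wild-type arsenite library and 62972880 in the wild-type control. A gene with 0 reads could still hold up to 3 by counting error, and for Hoxa11 that floor was 0.0939, 0.0172, 0.103 and 0.0177 RPKM in the same libraries. The intervals below are 95% exact conditional (Clopper-Pearson) intervals of a ratio of reads and cover counting error only. Dot1l itself stood at 1.24 RPKM in Dot1L null cells with arsenite, against 5.71 RPKM in wild type with arsenite, and at 9.59 RPKM in untreated Dot1L null cells, against 30.4 RPKM in untreated wild type. It was lower in both pairs and absent from neither null library. Of 11 fibroblast markers, 7 or 8 reached 1 RPKM in each library, among them Col1a1, Col1a2, Col3a1, Dcn and Vim, while Thy1 was at 0 in all 4. The list summed to 12118 and 2275 RPKM in the Dot1L null libraries with and without arsenite, against 4990.1 and 2653 RPKM in the wild-type ones. These sums do not show how single markers moved. By the 2-fold count defined below, 1 of 8 markers was higher with arsenite in each genotype, beside 15.2% of all genes in Dot1L null and 12.8% in wild type. Lower were 3 in Dot1L null and 6 in wild type, Col1a2 and Dcn among them in each, beside 37.1% and 35.7%. The neural and glial list had 3 of 9 genes at 1 RPKM or more in every library (Sox2, Nes and Tubb3), and its summed level was 42.7 and 45.2 RPKM in the Dot1L null libraries with and without arsenite, against 35.0 and 122 RPKM in the wild-type ones. Cartilage and bone had 3 of 9 in every library, at 18.8 and 34.2 RPKM against 13.5 and 38.0 RPKM, and macrophages and leukocytes had 2 or 3 of 11, at 11.7 and 4.93 RPKM against 18.4 and 24.5 RPKM. Adipocytes had 1 or 2 of 7, at 23.4 and 4.62 RPKM against 10.3 and 5.65 RPKM. The endothelial, epithelial and skeletal muscle lists had at most 1 gene at that level in any library, with Emcn, Epcam and Myod1 at 0 in all 4, and the pluripotent and germ cell list had none. The part of these genes in the Hox levels was not tested, and in bulk RNA fewer cells of a type and less RNA per cell cannot be told apart.

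Promoter sequences were available for part of the clusters, 24 RefSeq promoters of 22 Hox genes in GRCm38.p6, each from 250 bases before the transcript start to 50 after it. A set of 5 is shown because the results below turn on these genes. Hoxa7 was the most abundant Hoxa gene in both Dot1L null libraries, Hoxa11 had the largest ratio between untreated genotypes, and Hoxa13, the next coding Hox gene in the cluster after Hoxa11, had no reads anywhere. Hoxb4 and Hoxb8 share a cluster and stood on opposite sides of the untreated level in Dot1L null cells with arsenite. Capitals mark the letters of 6 motifs on either strand: TATAAA (the TATA box), CCAAT (bound by NF-Y), GGGCGG (the GC box bound by SP1), TGATNNAT (a site for Hox with Pbx proteins), TTTATG (a site for caudal and posterior Hox proteins) and AGGTCA (the half-site of retinoic acid and other nuclear receptors). All are written 5′ to 3′ on the strand of the gene: Hoxa7 at chr6:52218524-52218823, Hoxa11 at chr6:52245761-52246060 and Hoxa13 at chr6:52260831-52261130, all on the minus strand, then Hoxb4 at chr11:96318017-96318316 and Hoxb8 at chr11:96281655-96281954, both on the plus strand.
Hoxa7: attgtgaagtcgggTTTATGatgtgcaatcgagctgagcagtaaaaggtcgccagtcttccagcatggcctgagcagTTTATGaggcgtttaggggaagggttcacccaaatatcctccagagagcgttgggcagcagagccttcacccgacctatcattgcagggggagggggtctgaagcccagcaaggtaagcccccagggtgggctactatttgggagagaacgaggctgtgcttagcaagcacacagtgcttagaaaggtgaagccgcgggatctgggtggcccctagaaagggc
Hoxa11: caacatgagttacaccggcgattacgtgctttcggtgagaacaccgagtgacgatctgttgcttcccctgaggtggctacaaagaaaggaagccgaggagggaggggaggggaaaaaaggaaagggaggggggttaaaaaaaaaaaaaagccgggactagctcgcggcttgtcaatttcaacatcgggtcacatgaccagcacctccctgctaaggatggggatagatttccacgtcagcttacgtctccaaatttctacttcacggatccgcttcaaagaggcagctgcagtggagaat
Hoxa13: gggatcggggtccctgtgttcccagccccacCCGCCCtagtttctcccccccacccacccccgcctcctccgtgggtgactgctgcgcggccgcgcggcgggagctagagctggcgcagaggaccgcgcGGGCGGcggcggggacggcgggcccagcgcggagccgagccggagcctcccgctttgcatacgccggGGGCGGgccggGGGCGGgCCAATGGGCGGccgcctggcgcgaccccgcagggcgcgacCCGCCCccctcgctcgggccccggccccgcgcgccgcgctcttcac
Hoxb4: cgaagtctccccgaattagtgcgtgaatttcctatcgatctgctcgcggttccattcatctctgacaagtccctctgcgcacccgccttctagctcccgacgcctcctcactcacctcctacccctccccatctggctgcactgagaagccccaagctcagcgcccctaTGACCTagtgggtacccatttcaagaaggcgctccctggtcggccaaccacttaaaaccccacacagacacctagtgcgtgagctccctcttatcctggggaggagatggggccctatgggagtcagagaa
Hoxb8: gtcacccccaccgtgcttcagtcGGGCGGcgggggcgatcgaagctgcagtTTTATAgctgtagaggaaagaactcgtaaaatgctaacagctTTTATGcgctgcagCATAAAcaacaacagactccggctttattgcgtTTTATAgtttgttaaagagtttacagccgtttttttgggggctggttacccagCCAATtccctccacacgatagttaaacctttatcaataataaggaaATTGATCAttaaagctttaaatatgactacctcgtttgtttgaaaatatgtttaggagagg

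The Hoxa7 window held TTTATG on its own strand at −236 and −173 relative to the start, and none of the other motifs. The Hoxa11 window held none of the 6. The Hoxa13 window was the richest in CpG of all the Hox windows, with 45 CpG dinucleotides against 9 for Hoxa7, 15 for Hoxa11, 14 for Hoxb4 and 13 for Hoxb8, and it held 6 matches to GGGCGG. The Hoxb4 window had a single match, AGGTCA on the opposite strand at −81. The Hoxb8 window had 7 matches to 5 of the motifs, among them 2 each of TATAAA and TTTATG. Over all 24 Hox windows, CCAAT was found in 62.5%, against 37.4% of the 32851 promoters in the table. The shares for the other motifs in Hox windows and in all promoters were 16.7% and 13.6% for TATAAA, 41.7% and 35.7% for GGGCGG, 16.7% and 8.85% for TGATNNAT, 20.8% and 11.9% for TTTATG, and 29.2% and 16.3% for AGGTCA. The median CpG count was 14.5 in Hox windows and 7 in all promoters. A match describes the letters in a window and no more; neighbouring matches overlapped in none of the 5 windows shown.

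**Figure D1:**
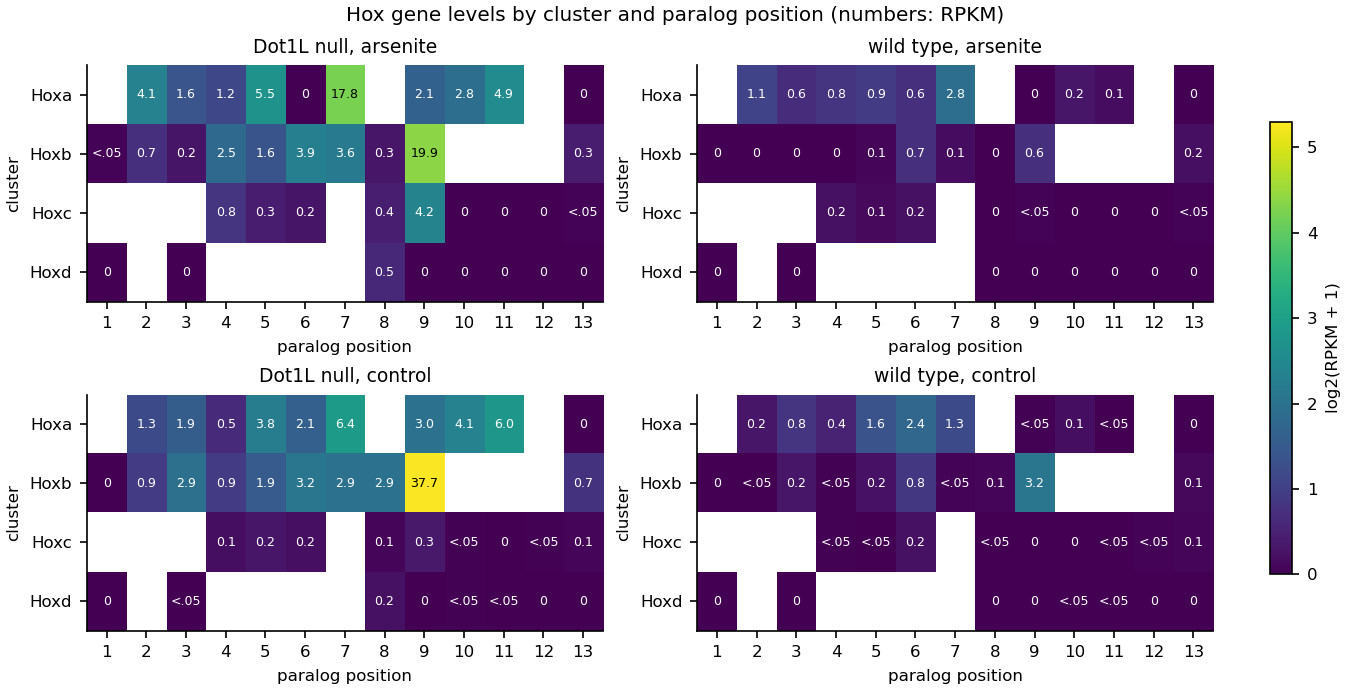
Levels of the Hox genes in each library, with clusters as rows and paralog position across. Colour is log2(RPKM + 1), the printed numbers are RPKM to 1 decimal (marked with a < sign where above 0 but rounding to none), and empty cells have no value shown. The filled part of the grid runs from paralog 2 to 11 in Hoxa and from 2 to 9 in Hoxb, is brightest at Hoxb9 and Hoxa7 in the Dot1L null panels, and is near 0 in most of Hoxc and Hoxd.

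Hox RNA in these fibroblasts came from the Hoxa and Hoxb clusters, and there was far more of it in Dot1L null cells. Summed over all 38 genes, Hox levels were 80.4 RPKM with arsenite and 86.1 RPKM untreated in Dot1L null cells, against 9.65 RPKM with arsenite and 13.8 RPKM untreated in wild type. The sum was thus 8.33 times as high in the arsenite pair and 6.25 times as high in the untreated pair. At 1 RPKM or more there were 14 Hox genes in the Dot1L null arsenite library and 15 in the Dot1L null control, against 2 in the wild-type arsenite library and 5 in the wild-type control. Both control libraries had been read to nearly the same depth, and so had both arsenite libraries.

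Hoxa gave 40.9 RPKM with arsenite and 30.8 RPKM untreated in Dot1L null cells, against 7.43 RPKM and 8.75 RPKM in wild type. Hoxb gave 33.0 and 54.1 RPKM in Dot1L null cells, against 1.68 and 4.68 RPKM in wild type, again with arsenite and untreated. Hoxc reached 5.90 and 0.997 RPKM in Dot1L null cells, against 0.535 and 0.330 RPKM in wild type. Hoxd, whose posterior genes pattern the distal limb and the genital tubercle, was nearly silent, at 0.522 and 0.217 RPKM in Dot1L null cells, against 0 and 0.0149 RPKM in wild type. The wider gap between genotypes in Hoxb than in Hoxa held in both pairs, with ratios of 19.6 and 5.51 in the arsenite pair and of 11.5 and 3.52 in the untreated pair.

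Summed in blocks of paralogs, Hoxa showed a ratio between genotypes that grew towards the posterior end. Anterior genes (paralogs 1 to 4) summed to 7.78 RPKM with arsenite and 5.46 RPKM untreated in Dot1L null cells, against 2.69 and 3.37 RPKM in wild type. Central genes (paralogs 5 to 8) summed to 23.3 and 12.3 RPKM in Dot1L null cells, against 4.37 and 5.21 RPKM in wild type. Posterior genes (paralogs 9 to 13) summed to 9.81 and 13.1 RPKM in Dot1L null cells, against 0.378 and 0.178 RPKM in wild type. The untreated ratios were 1.62, 2.36 and 73.6 from anterior to posterior, and the arsenite ratios 2.90, 5.34 and 26.0. In wild type the posterior sums rested on few reads, 14 with arsenite and 42 untreated. Hoxb showed no such order in the untreated pair, with ratios of 17.5 for anterior, 9.96 for central and 11.6 for posterior genes. Its arsenite ratios were 10.8 for central and 24.9 for posterior genes. The anterior genes had no arsenite ratio, since they had no reads at all in the wild-type arsenite library.

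**Figure D2:**
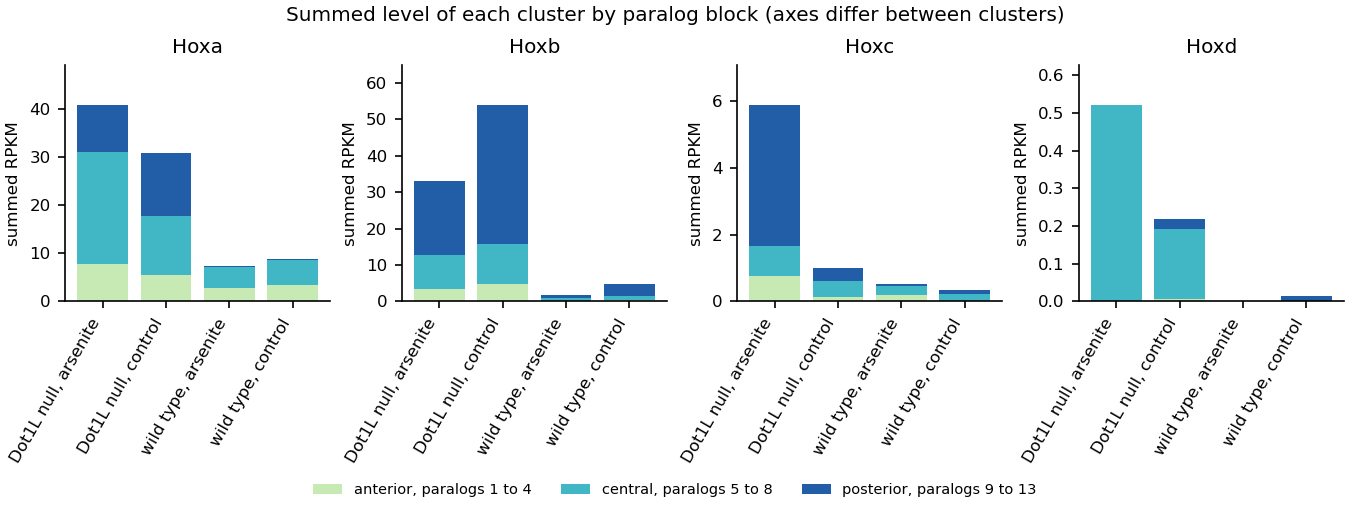
Summed RPKM of each cluster in the 4 libraries, stacked by paralog block; the vertical axes differ between clusters. Dot1L null bars exceed wild-type bars in every cluster, the posterior block of Hoxa is visible in the Dot1L null libraries (9.81 and 13.1 RPKM), and Hoxc is tallest in the Dot1L null arsenite library (5.90 RPKM).

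Within Hoxa, the anterior genes are best known for the hindbrain, the cranial neural crest and the pharyngeal glands. Hoxa2, which specifies the second pharyngeal arch, stood at 4.10 RPKM with arsenite and 1.29 RPKM untreated in Dot1L null cells, against 1.10 RPKM with arsenite and 0.242 RPKM untreated in wild type. The arsenite library was the higher of each genotype, and both Dot1L null libraries lay above both wild-type ones. Hoxa3, needed for the thymus and parathyroids, stood at 1.62 and 1.94 RPKM in Dot1L null cells, against 0.605 and 0.757 RPKM in wild type. Hoxa4 stood at 1.21 and 0.543 RPKM in Dot1L null cells, against 0.753 and 0.428 RPKM in wild type. The genotypes did not overlap for Hoxa3 and did for Hoxa4.

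Among the central genes, Hoxa5, known for its part in lung and rib formation, stood at 5.52 RPKM with arsenite and 3.77 RPKM untreated in Dot1L null cells, against 0.934 and 1.56 RPKM in wild type. Hoxa6 stood at 0 and 2.07 RPKM in Dot1L null cells, against 0.642 and 2.38 RPKM in wild type. Hoxa6 was thus the one gene of the 18 that reached 1 RPKM whose Dot1L null arsenite library was the lowest of the 4. Hoxa7, which acts in the trunk vertebrae and, with Hoxa9, in blood progenitors, stood at 17.8 and 6.44 RPKM in Dot1L null cells, against 2.79 and 1.27 RPKM in wild type. All 4 values stood apart, in the order of genotype first and arsenite second.

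Within Hoxa, the posterior genes Hoxa9, Hoxa10 and Hoxa11 separated the genotypes most. Hoxa9, a regulator of blood stem cells, stood at 2.15 RPKM with arsenite and 2.97 RPKM untreated in Dot1L null cells, from 89 and 670 reads, against 0 and 0.0273 RPKM in wild type, from 0 and 6 reads. Hoxa10, which patterns the uterus and the upper limb, stood at 2.79 and 4.10 RPKM in Dot1L null cells, against 0.241 and 0.145 RPKM in wild type. Hoxa11, which acts in the forearm and the uterus, stood at 4.88 and 6.04 RPKM in Dot1L null cells, from 156 and 1050 reads, against 0.137 and 0.00591 RPKM in wild type, from 4 reads and 1 read. The series stopped there: Hoxa13, the gene of the hand and foot plate, was listed at 0 in all 4 libraries.

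In Hoxb, Hoxb1, a gene of the hindbrain, had 1 read in the Dot1L null arsenite library and none elsewhere. Hoxb2 reached 0.662 RPKM with arsenite and 0.926 RPKM untreated in Dot1L null cells, against 0 and 0.00481 RPKM in wild type. Hoxb3 stood at 0.224 and 2.88 RPKM in Dot1L null cells, against 0 and 0.243 RPKM in wild type. Hoxb4, known for expanding blood stem cells, stood at 2.50 and 0.920 RPKM in Dot1L null cells, against 0 and 0.0230 RPKM in wild type. The annotated span of Hoxb3 contains Hoxb4, as that of Hoxa3 contains Hoxa4, Hoxa5 and Hoxa6, so reads between such neighbours are uncertain.

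Hoxb5 stood at 1.59 RPKM with arsenite and 1.89 RPKM untreated in Dot1L null cells, against 0.0657 and 0.198 RPKM in wild type. Hoxb6 stood at 3.89 and 3.21 RPKM in Dot1L null cells, against 0.667 and 0.803 RPKM in wild type. Hoxb7 stood at 3.61 and 2.92 RPKM in Dot1L null cells, against 0.136 and 0.0311 RPKM in wild type. For these central genes the genotypes stood apart in both pairs, and in Dot1L null cells the treatments differed by ratios of 1.19 to 1.24. In wild type, on few reads, Hoxb7 was 4.36-fold higher with arsenite (6 and 8 reads, 1.25 to 14.3) and Hoxb5 3.01-fold lower (2 and 35 reads, 0.773 to 25.8), with 95% counting intervals in brackets. Hoxb8, used to hold myeloid progenitors in an immature state, stood at 0.255 and 2.92 RPKM in Dot1L null cells, against 0 and 0.0660 RPKM in wild type. Hoxb9, which shapes the thoracic ribs and sternum with its paralogs, was the most abundant Hox gene in every library except wild type with arsenite. It stood at 19.9 RPKM with arsenite and 37.7 RPKM untreated in Dot1L null cells, from 609 and 6277 reads, against 0.646 and 3.23 RPKM in wild type, from 18 and 523 reads. Hoxb9 lay above 85.0% of the genes that reached 1 RPKM in the untreated Dot1L null library, against 17.8% in the untreated wild type. It made up 43.8% of the Hox sum in that Dot1L null library, against 23.4% in the untreated wild type. Hoxb13, the prostate and tail gene at the far end of the cluster, stayed below 1 RPKM, at 0.343 and 0.715 RPKM in Dot1L null cells, against 0.167 and 0.0864 RPKM in wild type.

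**Figure D3:**
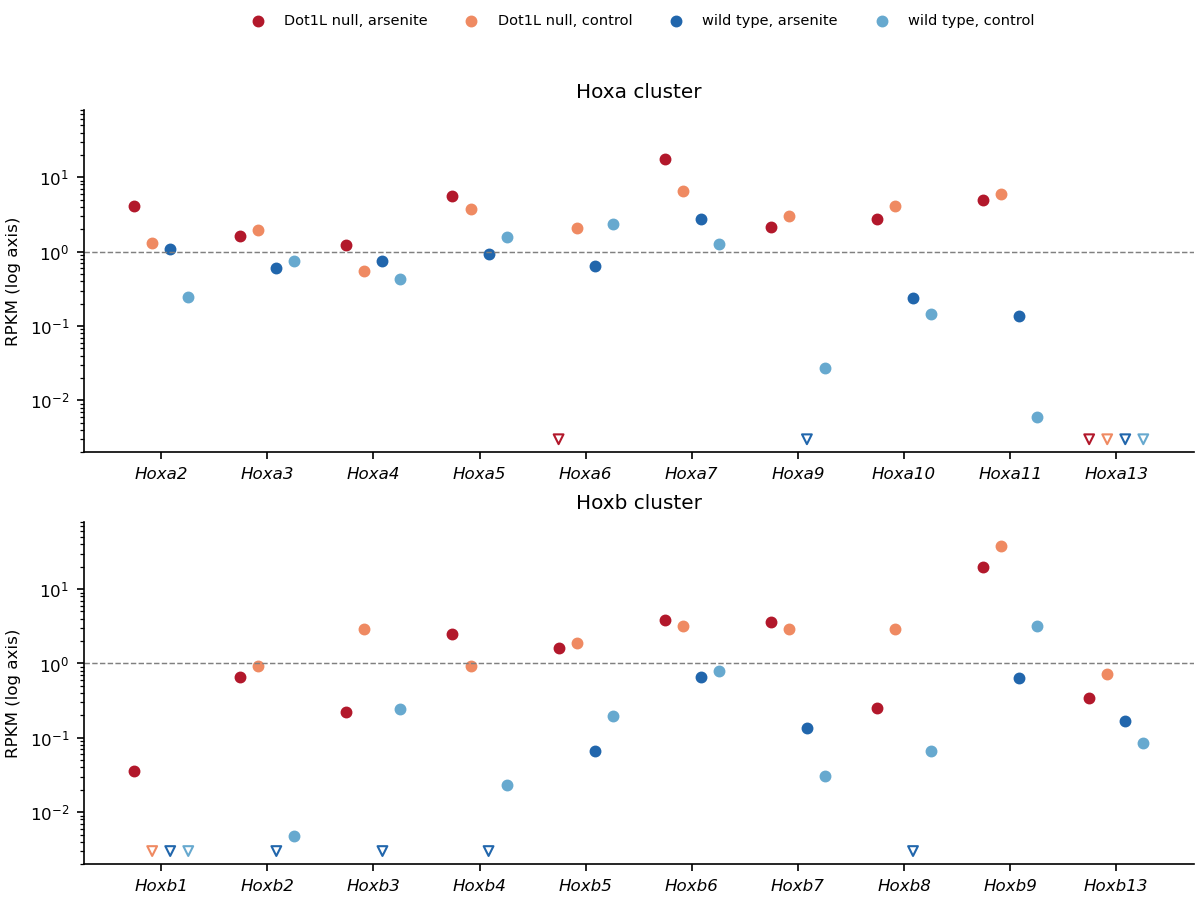
RPKM on a log axis for Hoxa and Hoxb genes in cluster order, 1 point per library, with triangles at the bottom for values of 0 and a dashed line at 1 RPKM. The Dot1L null points (red and orange) stand above the wild-type points (blue) for Hoxa7 and Hoxa9 to Hoxa11 and for Hoxb4 to Hoxb9, and overlap them at Hoxa4, Hoxa6 and Hoxb3.

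In Hoxc a single gene reached 1 RPKM. Hoxc9, which acts in thoracic vertebrae and motor neurons, stood at 4.19 RPKM with arsenite and 0.280 RPKM untreated in Dot1L null cells, from 121 and 44 reads, against 0.0380 and 0 RPKM in wild type, from 1 read and none. Its arsenite library stood far above its own control. Hoxc4 stood at 0.757 and 0.145 RPKM in Dot1L null cells, from 23 and 24 reads, against 0.181 and 0.0248 RPKM in wild type, from 5 and 4 reads. Hoxc4 was higher with arsenite in both genotypes, with a wide counting interval in wild type (1.56 to 36.6). Hoxc5, Hoxc6 and Hoxc8 stayed at or below 0.366 RPKM in every library. Hoxc10 to Hoxc13, which include the hair and nail gene Hoxc13, stayed at or below 0.0645 RPKM. In Hoxd, Hoxd8 had 17 and 33 reads in Dot1L null cells with and without arsenite, against 0 and 0 in wild type, and reached 0.522 RPKM at most. Hoxd3, Hoxd10 and Hoxd11 had at most 3 reads in any library, and Hoxd1, Hoxd9, Hoxd12 and Hoxd13 were listed at 0 throughout.

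The first comparison asked how Hox levels differed between Dot1L null and wild-type cells without arsenite. A gene was counted at 2-fold after 1 RPKM had been added to both values, which shrinks the differences of low genes, among genes with at least 1 RPKM in any library. Of the 38 Hox genes 18 passed that filter, and 10 of them were at least 2-fold higher in Dot1L null cells, where 6.45% of all 12588 genes past the filter were. Not one was at least 2-fold lower, where 14.7% of all genes were. The 10 were Hoxa7, Hoxa9, Hoxa10, Hoxa11, Hoxb3, Hoxb5, Hoxb6, Hoxb7, Hoxb8 and Hoxb9. Of the 18 genes, 12 passed the filter through Dot1L null libraries alone and so had to be higher in at least 1 of these, and for that reason neither the count of 10 nor any later count of Hox genes past the filter that were higher or lower in Dot1L null cells is read against the share of all genes. The other 6 reached 1 RPKM in both genotypes, and of these Hoxa7 and Hoxb9 were among the 10, while Hoxa2, Hoxa5 and Hoxa6 were not.

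Ratios of the RPKM values themselves follow, each with its counting interval. Hoxb9 was 11.7-fold higher in untreated Dot1L null cells (10.7 to 12.8). Hoxa10 was 28.3-fold higher (20.2 to 40.8), Hoxa9 109-fold (49.7 to 297), Hoxb7 93.8-fold (47.4 to 218) and Hoxb8 44.2-fold (24.5 to 89.2). Hoxa11 was 1022-fold higher, with an interval of 183 to 40404 because wild type gave 1 read. Hoxa7 was 5.07-fold higher (4.40 to 5.87). At the other end, Hoxa6 was 1.15-fold lower in Dot1L null cells, with an interval of 0.975 to 1.36 that includes no difference. Hoxa4 was 1.27-fold higher, and its interval of 0.837 to 1.93 also includes no difference. Below the filter, Hoxb2 was 193-fold higher (34.2 to 7649.8) on 198 reads in Dot1L null cells, against 1 in wild type.

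The arsenite pair asks the same question with libraries that the untreated pair does not share. Here 12 Hox genes were at least 2-fold higher in Dot1L null cells, where 8.75% of all genes were, and none was at least 2-fold lower, where 16.9% were. Hoxb9 was 30.9-fold higher (19.4 to 52.4), Hoxa11 35.6-fold (13.6 to 132), Hoxb7 26.6-fold (12.0 to 73.5) and Hoxa7 6.38-fold (5.09 to 8.09). Hoxc9 was 110.3-fold higher, with an interval of 19.4 to 4394. Hoxb4 was at least 37.4-fold and Hoxa9 at least 27.1-fold higher, bounds set against the floor of 3 reads because wild type had none. With 1 RPKM added, Hoxa2 and Hoxa5 were past 2-fold in this pair (log2 folds of 1.28 and 1.75) and short of it in the untreated one (0.89 and 0.90). As ratios of RPKM both were past 2-fold in each pair: Hoxa2 was 3.71-fold higher here and 5.34-fold untreated, and Hoxa5 5.90-fold here and 2.42-fold untreated. Hoxb3 and Hoxb8 were past 2-fold in the untreated pair and, with 1 RPKM added, short of it here. They had 4 and 8 reads in Dot1L null cells, against 0 and 0 in wild type. Set against the floor of 3 reads, Hoxb3 was 1.22-fold and Hoxb8 2.43-fold higher. The counting interval of Hoxb3 includes no difference, and that of Hoxb8 does not.

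Past 2-fold in both pairs were 8 Hox genes, all higher: Hoxa7, Hoxa9, Hoxa10, Hoxa11, Hoxb5, Hoxb6, Hoxb7 and Hoxb9. Of these all but Hoxa7 and Hoxb9 passed the filter through Dot1L null libraries alone. Over all genes, 2.92% were higher in both pairs and 5.72% lower in both. Counted another way, both Dot1L null libraries lay above both wild-type libraries for 14 of the 18 Hox genes past the filter, and the reverse held for none. Of all genes past it, 8.49% lay above in this way and 18.7% below. With genes below the filter the count was 19 of 38, for which no share over all genes was computed. Of those below it, Hoxb13 (0.573 to 9.12) and Hoxc5 (0.883 to 18.7) had intervals in the arsenite pair that include no difference, and Hoxb2, Hoxc8 and Hoxd8 did not. The untreated pair had a median of −0.17 over all genes and the arsenite pair one of −0.28, both on the log2 scale. With the folds centred on these medians, the same 10 and 3 more (Hoxa2, Hoxa5 and Hoxb4) were higher past 2-fold in the untreated pair, beside 8.81% of all genes, and none was lower, beside 11.3%. In the arsenite pair the same 12 were higher, beside 12.8%, and none was lower, beside 9.64%. Over 12155 genes the slope of the log2 fold on gene length was −0.03 per doubling in the untreated pair and −0.06 in the arsenite pair.

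**Figure D4:**
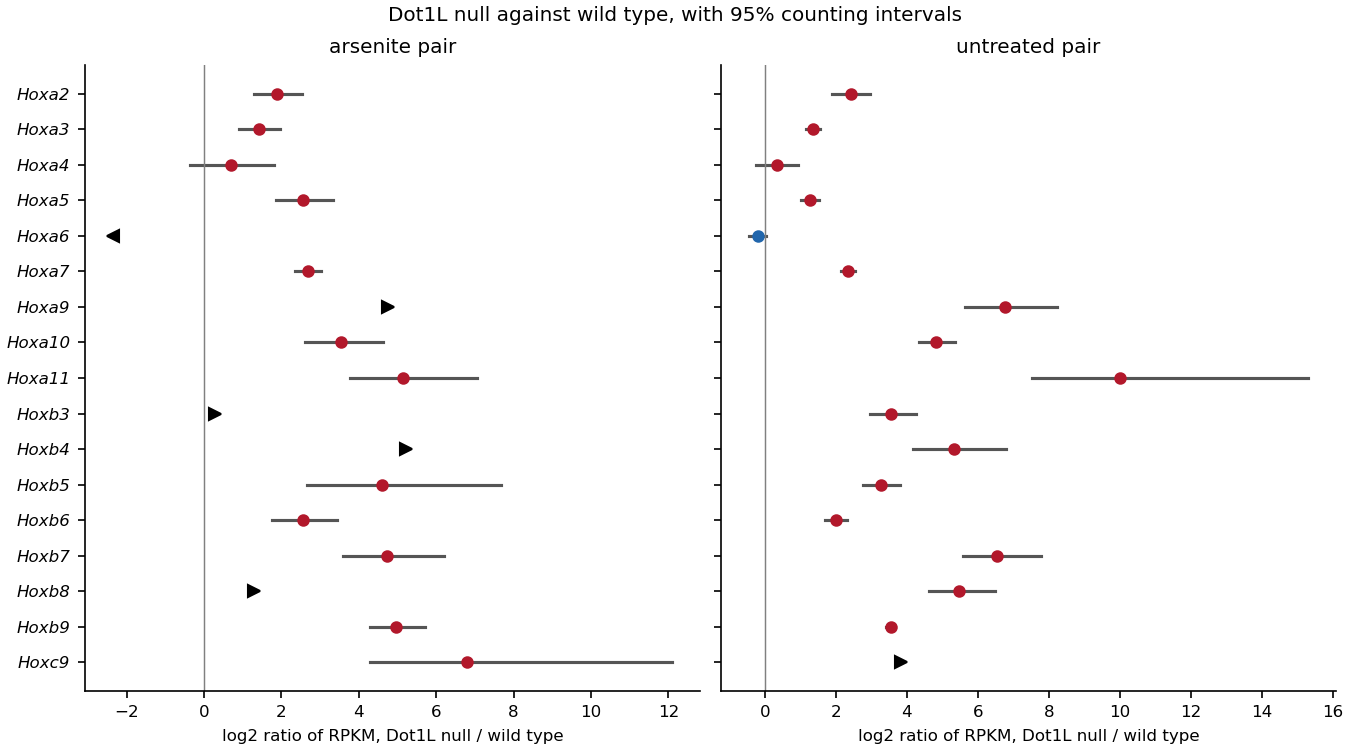
Log2 ratio of RPKM, Dot1L null over wild type, for Hox genes that reached 1 RPKM, in the arsenite pair (left) and the untreated pair (right). Bars are 95% counting intervals, red points lie above and blue points below no difference, and black triangles are bounds where a library had 0 reads. Most genes lie right of 0 in both panels. The bar of Hoxa4 crosses 0 in both panels, and that of Hoxa6 in the untreated pair. In the arsenite pair Hoxa6 is a bound left of 0. Hoxb3 is a bound right of 0 there, though its counting interval includes no difference.

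Arsenite was compared with control next, within each genotype. This comparison runs across the difference in depth, 5.45-fold in Dot1L null and 5.81-fold in wild type, and folds of all genes followed gene length, with slopes of −0.66 and −0.63 per doubling in the same genotypes. In Dot1L null cells 3 Hox genes were at least 2-fold higher with arsenite, Hoxa2, Hoxa7 and Hoxc9, where 15.2% of all genes were. Another 3, Hoxa6, Hoxb3 and Hoxb8, were at least 2-fold lower, where 37.1% of all genes were. Hoxc9 was 15-fold higher (10.5 to 21.7), Hoxa2 3.17-fold (2.50 to 3.99) and Hoxa7 2.77-fold (2.51 to 3.05). Hoxb3 was 12.9-fold lower (4.96 to 47.5), Hoxb8 11.5-fold lower (5.78 to 26.7) and Hoxa6, with 0 reads against 269, at least 16.5-fold lower. Hoxb9 was 1.89-fold lower (1.74 to 2.06), short of 2-fold on either scale.

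In wild type no Hox gene was at least 2-fold higher with arsenite, where 12.8% of all genes were. Of the 18 genes past the filter, 12 stayed below 1 RPKM in both wild-type libraries and could not reach 2-fold there once 1 RPKM was added, so the wild-type counts are not read against these shares. At least 2-fold lower were 3, Hoxa6 and Hoxb9 among them, where 35.7% of all genes were. Hoxb9 was 5.00-fold lower (3.13 to 8.50) and Hoxa6 3.71-fold lower (2.18 to 6.87). Without the added 1 RPKM, Hoxa2 was 4.56-fold higher (2.70 to 7.61) and Hoxa7 2.20-fold higher (1.70 to 2.83).

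The median of all genes was −0.53 in Dot1L null and −0.56 in wild type, on the log2 scale, and the Hox counts moved with it. After centring on these medians, Dot1L null cells had 5 Hox genes higher (Hoxa2, Hoxa4, Hoxa7, Hoxb4 and Hoxc9, beside 23.4% of all genes) and the same 3 lower (beside 23.8%). Wild type then had 2 higher, Hoxa2 and Hoxa7 (beside 21.6%), and none lower (beside 19.4%). Hoxa6 was the single Hox gene past 2-fold in both genotypes without centring, lower in each, where 26.3% of all genes were lower in both and 8.40% higher in both.

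The arsenite effect on the log2 scale was at least 1 more positive in Dot1L null than in wild type for Hoxc9, beside 12.1% of all genes, and at least 1 more negative for Hoxb3 and Hoxb8, beside 12.8%. After centring the same 3 genes were past that size, beside 13.5% and 11.3%. For Hoxc9 the folds were 2.02 in Dot1L null and 0.05 in wild type. For Hoxb8 they were −1.64 and −0.09, and for Hoxb3 −1.66 and −0.31. In wild type these genes had at most 23 reads in either library, which left little room for a lower value, and the difference of the effects was not tested.

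**Figure D5:**
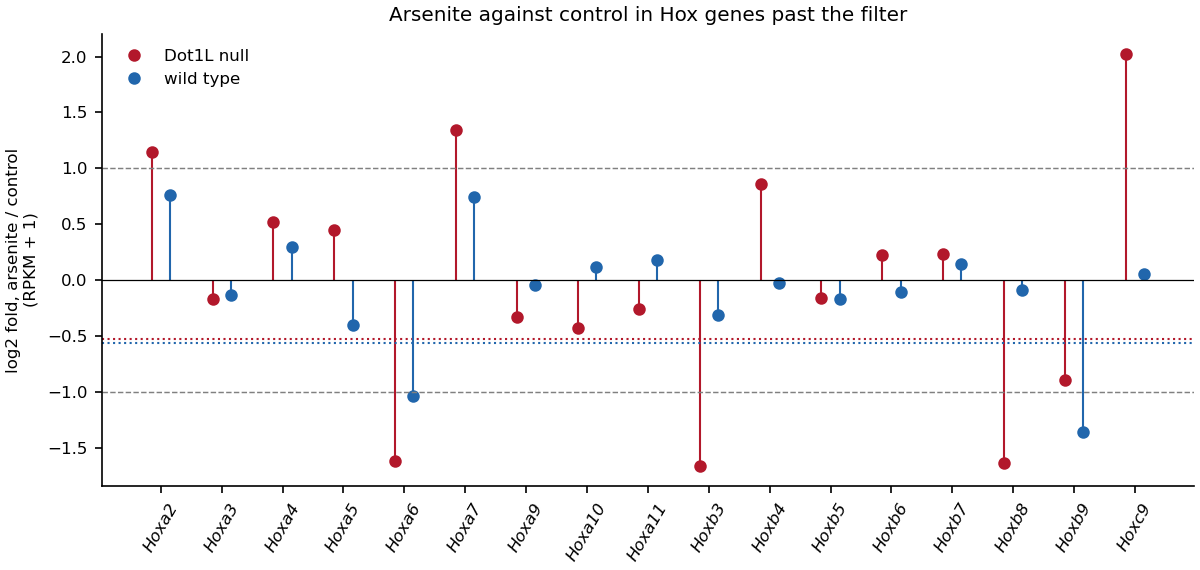
Log2 fold of arsenite over control on the RPKM + 1 scale for Hox genes that reached 1 RPKM, in Dot1L null (red) and wild type (blue). Dashed lines mark 2-fold, and dotted lines mark the medians of all genes, −0.53 and −0.56. Hoxa2, Hoxa7 and Hoxc9 pass the upper line in Dot1L null, and Hoxa6 passes the lower line in both genotypes.

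Over the 38 Hox genes, the Dot1L null arsenite library was most like the Dot1L null control, with a Pearson correlation of 0.82 on log2(RPKM + 1). Its correlation with the wild-type arsenite library was 0.69. Over all 12588 genes past the filter its order was the other way round, 0.74 with its own control and 0.90 with the wild-type arsenite library. The sets differ, since 20 of the 38 Hox genes did not pass the filter. Over the Hox genes the wild-type libraries showed no such order by Pearson correlation. Wild type with arsenite stood at 0.69 with its own control and 0.69 with Dot1L null with arsenite. The wild-type control stood at 0.69 with wild type with arsenite and 0.68 with the Dot1L null control. By Spearman correlation of RPKM the wild-type libraries stood at 0.77 with each other. Wild type with arsenite then stood at 0.68 with Dot1L null with arsenite, and the wild-type control at 0.74 with the Dot1L null control. The points share libraries and depth, and the correlations are descriptions.

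Noncoding RNAs of the clusters were read from a list of 19, of which 17 had a row and 4 reached 1 RPKM. Hoxa11os, transcribed from the strand opposite Hoxa11, stood at 6.71 RPKM with arsenite and 1.81 RPKM untreated in Dot1L null cells, against 0.210 and 0.0155 RPKM in wild type. It was 116-fold higher in untreated Dot1L null cells (39.5 to 567), and since the strand setting of the counting is not given, its reads cannot be told apart from those of Hoxa11 where they overlap. Hoxb3os stood at 1.98 and 0.601 RPKM in Dot1L null cells, against 0.0229 and 0 RPKM in wild type. Its annotated span overlaps those of Hoxb2 and Hoxb3, so the same limit holds for its reads. The other 2 went the opposite way in the untreated pair. Hotairm1, known from human myeloid cells, stood at 14.7 and 5.46 RPKM in Dot1L null cells, against 8.29 and 17.6 RPKM in wild type. Halr1, downstream of the anterior end of Hoxa, stood at 3.93 and 0.337 RPKM in Dot1L null cells, against 12.2 and 1.80 RPKM in wild type. Both lie at the anterior end of the cluster, where the ratio of the Hoxa sums was smallest. Single genes did not follow that order: untreated, the anterior Hoxa2 was 5.34-fold higher and the central Hoxa5 2.42-fold.

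Of 15 genes flanking the clusters, 9 passed the filter. In the untreated pair 0 were at least 2-fold higher in Dot1L null cells (6.45% of all genes) and 2 lower (14.7%), Smug1 and Cbx5, both beside Hoxc, and the median was 0.01, against −0.17 over all genes. In the arsenite pair 0 were higher (8.75%) and 4 lower (16.9%), with a median of −0.86, against −0.28. Lnpk, beside Hoxd, stood at 0.276 RPKM with arsenite and 3.12 RPKM untreated in Dot1L null cells, against 1.71 and 3.19 RPKM in wild type. It was among the 4 and 6.21-fold lower in the arsenite pair (4.20 to 9.49).

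Hox proteins bind DNA with TALE cofactors, the Pbx, Meis and Pknox proteins. Of the 9 listed, 8 passed the filter, and in untreated Dot1L null cells 1 was at least 2-fold higher and 1 lower, beside 6.45% and 14.7% of all genes (median −0.39, against −0.17). Meis2 stood at 0.921 RPKM with arsenite and 9.40 RPKM untreated in Dot1L null cells, against 0.902 and 2.31 RPKM in wild type, so it stood apart in 1 library.

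Among the regulators of the clusters, all 22 listed Polycomb subunits passed the filter. In untreated Dot1L null cells none was at least 2-fold higher, beside 6.45% of all genes, and 3 were lower, Ezh2, Phf19 and Cbx7, beside 14.7% (median −0.31, against −0.17 over all genes). As a count, 3 of 22 lies near that share. Phf19, which guides the complex that methylates lysine 27 of histone H3, stood at 0.568 RPKM with arsenite and 0.491 RPKM untreated in Dot1L null cells, against 3.76 and 11.6 RPKM in wild type. It was 23.7-fold lower in the untreated pair (20.2 to 27.9). In the arsenite pair 0 were higher and 7 lower, beside 8.75% and 16.9% of all genes (median −0.51, against −0.28). With arsenite 11 of the 22 were lower in Dot1L null and 10 in wild type, beside 37.1% and 35.7% of all genes. All 15 MLL and COMPASS subunits passed, with 2 higher and 2 lower in untreated Dot1L null cells, beside 6.45% and 14.7% of all genes (median 0.05, against −0.17). Kmt2a, the founding MLL gene, stood at 12.2 RPKM in untreated Dot1L null cells, against 12.3 RPKM in untreated wild type. With arsenite 11 of the 15 were lower in Dot1L null and 8 in wild type, beside 37.1% and 35.7% of all genes. In each genotype 1 was higher, beside 15.2% and 12.8%. In the arsenite pair 0 were higher and 3 lower, beside 8.75% and 16.9% (median −0.24, against −0.28). Of 10 CTCF and cohesin genes, which build the borders and loops inside Hox clusters, 1 was lower and 0 higher in untreated Dot1L null cells, beside 14.7% and 6.45% of all genes (median −0.28). With arsenite 9 were lower in each genotype, beside 37.1% of all genes in Dot1L null and 35.7% in wild type. None of these list counts was adjusted for gene length, which the arsenite folds of all genes followed. Ctcf stood at 1.94 and 33.5 RPKM in Dot1L null cells, against 4.14 and 31.2 RPKM in wild type.

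Retinoic acid switches Hox genes on in order from the anterior end. Of 18 genes of that pathway 13 passed the filter. In untreated Dot1L null cells 3 were at least 2-fold higher, Aldh1a1 and Crabp2 among them, and 3 lower, Rarb, Cyp26b1 and Rdh10, beside 6.45% and 14.7% of all genes (median −0.21, against −0.17). In the arsenite pair 5 were higher and 0 lower, beside 8.75% and 16.9% (median 0.47, against −0.28). Crabp2, which carries retinoic acid to its receptors, stood at 19.9 RPKM with arsenite and 13 RPKM untreated in Dot1L null cells, against 1.33 and 0.456 RPKM in wild type. The receptor gene Rarb, itself a target of retinoic acid, and Cyp26b1, the enzyme that breaks retinoic acid down, were on the lower side in the untreated pair. In the arsenite pair neither was at least 2-fold lower. Of the Cdx genes and axial signals, 1 of 7 passed, Gdf11, a signal that turns on posterior Hox genes in the embryo. It stood at 16.0 and 6.67 RPKM in Dot1L null cells, against 5.34 and 6.70 RPKM in wild type.

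Other transcription factors that mark position in the limb and body wall were past 2-fold between genotypes in both directions. Of 41 listed, 21 passed the filter, and in untreated Dot1L null cells 3 were at least 2-fold higher (Msx2 and Emx2 among them) and 7 lower (Prrx2, Lhx2, En1, Pax3, Irx3 and Irx5 among them), beside 6.45% and 14.7% of all genes, with a median of −0.56, against −0.17. In the arsenite pair 4 were higher and 3 lower, beside 8.75% and 16.9% (median −0.07, against −0.28). En1, a factor of ventral limb ectoderm and of a fibroblast lineage of the back skin, stood at 4.35 RPKM with arsenite and 1.47 RPKM untreated in Dot1L null cells, against 10.0 and 14 RPKM in wild type. Irx3, an anterior limb factor, stood at 0.182 and 0.351 RPKM in Dot1L null cells, against 1.10 and 5.63 RPKM in wild type. Whether the cells came from the same embryonic region is not given in the labels.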

How the data were processed

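Stranded paired-end libraries (dUTP method) were made after rRNA depletion, per the labels' protocols, although the molecule label is polyA RNA. TopHat, HTSeq, Bowtie, deepTools and mm10 appear in the submitters' processing notes with neither version nor role. The authors deposited RPKM values, scaled to gene length and depth, for 37224 Ensembl identifiers; which annotation and strand setting they used is not given in the sources used here. Symbols were found for 35449.

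Depth and gene lengths were recovered from the steps of the RPKM values within a relative tolerance of 1e-12, and the procedure was tested on simulated data. A length was found for all 21617 genes above 0; it may be the true length divided by a whole number, which leaves the RPKM unchanged and makes an interval too wide. Reads served only for counting intervals and floors of 3 reads, never for a count model.

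Genes with at least 1 RPKM in any library were compared as log2((RPKM + 1)/(RPKM + 1)) and counted at 2-fold. With 1 library per group no p-value was computed. The Hox genes, the 9 further gene lists and the 9 marker lists were chosen with earlier results of these data known. The text gives the Hox genes, intervals for up to 6 with the largest log2 fold per comparison and for others where a statement needs one, and up to 4 genes per list, those with the largest log2 fold for arsenite in wild type or for untreated genotype. A few genes that these rules take in are not reported here, and counts and sums include them. Motifs were searched in RefSeq promoters of GRCm38.p6. Python 3.11.15, pandas 2.3.3, NumPy 2.4.6 and SciPy 1.17.1 were used.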

Additional observations from a re-analysis of the deposited data

Results flagged for a closer look

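Hotairm1, a noncoding RNA of the Hoxa cluster, stood past 2-fold in opposite directions with arsenite, at a log2 fold of 1.281 in Dot1L null cells and of −1.001 in wild type, which is barely past it. It rested on 179 reads with arsenite and 362 untreated in Dot1L null cells, against 92 and 1135 in wild type. The difference was not tested, for want of replicates. Of 121 Hox and listed genes past the filter, Hotairm1 was the 1 with opposite effects, beside 45 of all 12588 genes.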

How the results depend on the processing

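No paired analysis was possible because each group held 1 library and the labels number no replicates; for the same reason no library could be left out. Of 68 recomputed Hox counts, 49 stayed within 1.5 times the value above and 19 did not. Some of the 49 could not move. With 1 RPKM added, a gene below 1 RPKM in every library cannot reach 2-fold, so dropping the filter left the counts between 2 libraries unchanged. Asking that the counting interval exclude no difference can only remove genes, so a count of 0 stayed 0. With an added 0.1 RPKM in place of 1, genes higher with arsenite numbered 5 in Dot1L null (3 above) and 3 in wild type (0 above), 1 gene (Hoxa6) was lower in Dot1L null than in wild type in the arsenite pair (0 above), and 5 effects were more positive and 5 more negative in Dot1L null (1 and 2 above). With a filter of at least 5 RPKM, 3 genes were higher in Dot1L null in the untreated pair (10 above) and 4 in the arsenite pair (12 above). With arsenite 1 was then higher and 0 lower in Dot1L null, 1 lower in wild type, and 0 effects were more positive and 0 more negative. Centring on the median gave 5 higher with arsenite in Dot1L null, and 2 higher and 0 lower in wild type. Scaling to the 75th percentile gave 1 higher with arsenite in wild type and 3 effects more positive in Dot1L null. Removing the length trend gave 5 higher with arsenite in Dot1L null and 3 in wild type. The cause of these moves was not tested, apart from the smaller number of genes a stricter filter leaves. No log2 fold of a single gene reversed among 112 recomputed, and 92 of them moved by less than their own counting interval, which has no outer limit where a library had 0 reads. A change of filter leaves a gene's own fold as it is. The 92 thus include 21 folds without the filter and 7 with the filter of 5 RPKM that could not move. With 0.1 RPKM added in place of 1 the 21 folds moved by 0.11 to 3.05 on the log2 scale (median 1.54), and under the other alternatives by at most 0.58. Depth limits the arsenite libraries most: Hoxb3 and Hoxb8 had 4 and 8 reads in Dot1L null cells there, and their counting intervals are wide.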
